A study of Mus musculus with 32 samples.

Results

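The B cell surface and signalling genes described here are 8 genes chosen by name: Cd79b, Ighd, Fcer2a, Siglecg, Stap1 and H2-Ob, which are listed in the table of experiment T, and Btla and Fcrl1, which are listed in that of experiment P. They are 6 of the 306 genes of T and 2 of the 242 genes of P, or 8 of 533 genes in all. None is in both tables, so no gene of the group could be compared between the experiments.

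B cells are lymphocytes that recognise antigen through a membrane immunoglobulin, of class M or D, held in a complex with the signalling chains CD79A and CD79B. Coreceptors such as FCRL1 can raise the signal of this receptor, and inhibitory receptors such as Siglec-G and BTLA, which recruit phosphatases, lower it. B cells also present peptides on MHC class II, and the class II-like protein H2-O limits which peptides are loaded. In liver, B cells are a minority among hepatocytes, so a whole-liver library carries few of their transcripts.

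The study asked how the narcolepsy drug sodium oxybate (SXB), a salt of gamma-hydroxybutyrate, acts on body weight in obese mice. Livers of C57BL/6J mice gave 4 groups of 8 RNA libraries each: SXB and vehicle in experiment T (Experiment 1 of the labels) and SXB and vehicle in experiment P (Experiment 2). All groups share the strain and the tissue. Dose, duration, diet, sex and age are not given in the sources used here, nor is which experiment stands for developing and which for established obesity. The labels do not tie libraries to single animals, and the p-values therefore reflect the spread between libraries, which may be technical.

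Each table holds only genes chosen on these same libraries: every listed gene has, in the authors' deposited columns, a log2 fold change larger than 1 in size and an unadjusted p under 0.05. That all 8 genes were lower with SXB in the authors' deposited tables follows from this choice together with the choice of the genes, and is a description only. There, the fold change was below 1 for 52.0% of the genes of T and for 83.1% of the genes of P. The tests below compare SXB and vehicle again on the libraries that chose the genes. Their p-values, adjusted over listed genes only, therefore carry no valid error rate and are a description as well. A B cell gene that is not listed has no value here. Of 9 defining B cell markers, T lists Cd79b, Ighd and Fcer2a and P lists none. Of 8 hepatocyte markers neither table lists any, so the labelled tissue could not be checked. Values are the authors' normalised expression values, rounded to 0.01. Whether they are per length is not stated, so levels are compared between libraries and not between genes. Depth is unknown.

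Some libraries of T stand apart. Library 16 is labelled vehicle and library 18 is labelled SXB, but each stands among the columns of the opposite treatment. Results for T are therefore given by label with all 16 libraries and again without these 2. Libraries 1 to 4, of which 3 are SXB and 1 is vehicle, held 486.4 or more of the mitochondrial gene mt-Atp6, against 44.8 at most in the others. In P, vehicle libraries 33, 34 and 35 had sums of listed values between 707.5 and 1626, against 144.4 to 372.0 in the SXB libraries and 259.8 to 313.2 in the remaining vehicle libraries.

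In the GENCODE M21 annotation of GRCm38 the genes lie on 8 chromosomes. Cd79b lies on chromosome 11 from 106311341 to 106314762, Ighd on chromosome 12 from 113406604 to 113416324 and Fcer2a on chromosome 8 from 3681737 to 3694175, these 3 on the minus strand. The others are on the plus strand: Siglecg on chromosome 7 from 43408204 to 43418358, Stap1 on chromosome 5 from 86071746 to 86106125, H2-Ob on chromosome 17 from 34238903 to 34254414, Fcrl1 on chromosome 3 from 87376387 to 87402934 and Btla on chromosome 16 from 45224315 to 45257670. Ighd is annotated as an immunoglobulin constant gene and the remaining 7 as protein coding. The single overlap with another gene is that of Stap1 with the small nuclear RNA gene Gm24524 on the same strand.

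Promoter sequences from RefSeq (GRCm38.p6) were at hand for 5 of the genes: Fcrl1, Siglecg, Fcer2a, Btla and H2-Ob. Those of H2-Ob, which had the largest differences, of Fcer2a and of Fcrl1 are shown over the 250 bases before the annotated start, 5′ to 3′ on the gene's own strand. Capitals mark matches to 5 motifs searched on both strands: the octamer ATGCAAAT, the CCAAT box CCAAT, the PU.1 core GAGGAA, the E-box CAGGTG and the EBF1 core. No match in these 3 windows overlaps another.
H2-Ob, chr17:34238655-34238904, plus strand: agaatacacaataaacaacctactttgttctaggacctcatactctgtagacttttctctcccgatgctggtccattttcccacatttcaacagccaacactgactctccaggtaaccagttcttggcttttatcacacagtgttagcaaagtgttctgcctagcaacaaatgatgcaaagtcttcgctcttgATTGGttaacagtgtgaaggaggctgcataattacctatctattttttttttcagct
Fcer2a, chr8:3694175-3694424, minus strand: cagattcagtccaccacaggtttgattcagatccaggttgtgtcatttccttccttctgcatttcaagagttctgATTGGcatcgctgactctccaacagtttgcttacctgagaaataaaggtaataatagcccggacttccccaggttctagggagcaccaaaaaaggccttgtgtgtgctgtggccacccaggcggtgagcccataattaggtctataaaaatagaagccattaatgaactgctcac
Fcrl1, chr3:87376137-87376386, plus strand: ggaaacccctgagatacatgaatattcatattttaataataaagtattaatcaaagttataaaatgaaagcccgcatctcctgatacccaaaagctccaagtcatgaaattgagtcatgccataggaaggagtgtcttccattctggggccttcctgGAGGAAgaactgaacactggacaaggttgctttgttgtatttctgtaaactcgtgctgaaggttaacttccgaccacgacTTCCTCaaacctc

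H2-Ob has a CCAAT box on the other strand at positions -57 to -53 from the start, and Fcer2a has one on the other strand at -175 to -171. Fcrl1 has PU.1 cores at -93 to -88 on its own strand and at -13 to -8 on the other. Over all windows of these genes, some of which have several starts, the CCAAT box was found for 2 of 5 genes (Fcer2a and H2-Ob), the PU.1 core for 3 (Btla, Fcrl1 and Siglecg), the E-box for Fcer2a, and the octamer and the EBF1 core for 0. Of all 27025 genes with such windows, 37.5%, 25.9%, 19.4%, 1.81% and 0.914% hold these motifs. A match is not a binding site, and no match says only that these letters are not in the window.

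In experiment T Cd79b and Ighd, which encode chains of the B cell receptor, were lower in most SXB libraries. However, no gene passed the test by label. Cd79b, the signalling chain of the receptor, ranged in SXB libraries from 0.21 to 0.71 with a median of 0.395, and in vehicle libraries from 0.15 to 1.08 with a median of 0.76. Every one of the 8 SXB libraries was under the vehicle median and 5 vehicle libraries lay above every SXB library, while vehicle library 16, at 0.15, was the lowest of all. The mean was 0.43 ± 0.159 (SD, n = 8) with SXB and 0.666 ± 0.334 (SD, n = 8) with vehicle, 1.55-fold lower. Ighd, the constant region of immunoglobulin D on mature naive B cells, ranged from 0.37 to 0.68 with SXB (median 0.455) and from 0.18 to 2.36 with vehicle (median 0.84). Its 8 SXB libraries formed a narrow band, all below the vehicle median, and the vehicle libraries spread below and above it, from library 16 at the bottom to library 4 at the top.

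Of the surface receptors, Fcer2a encodes CD23, the low-affinity receptor for immunoglobulin E on follicular B cells. It ranged from 0.09 to 0.32 with SXB (median 0.185) and from 0.05 to 0.76 with vehicle (median 0.32), with 7 of 8 SXB libraries below the vehicle median. Library 4 was again the highest and library 16 the lowest. Siglecg, an inhibitory receptor for sialic acids that dampens B cell receptor signals, ranged from 0 to 0.23 with SXB (median 0.065) and from 0.07 to 0.45 with vehicle (median 0.11). Here 5 of 8 SXB libraries lay below the vehicle median, and library 3 was listed at 0.

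**Figure D1:**
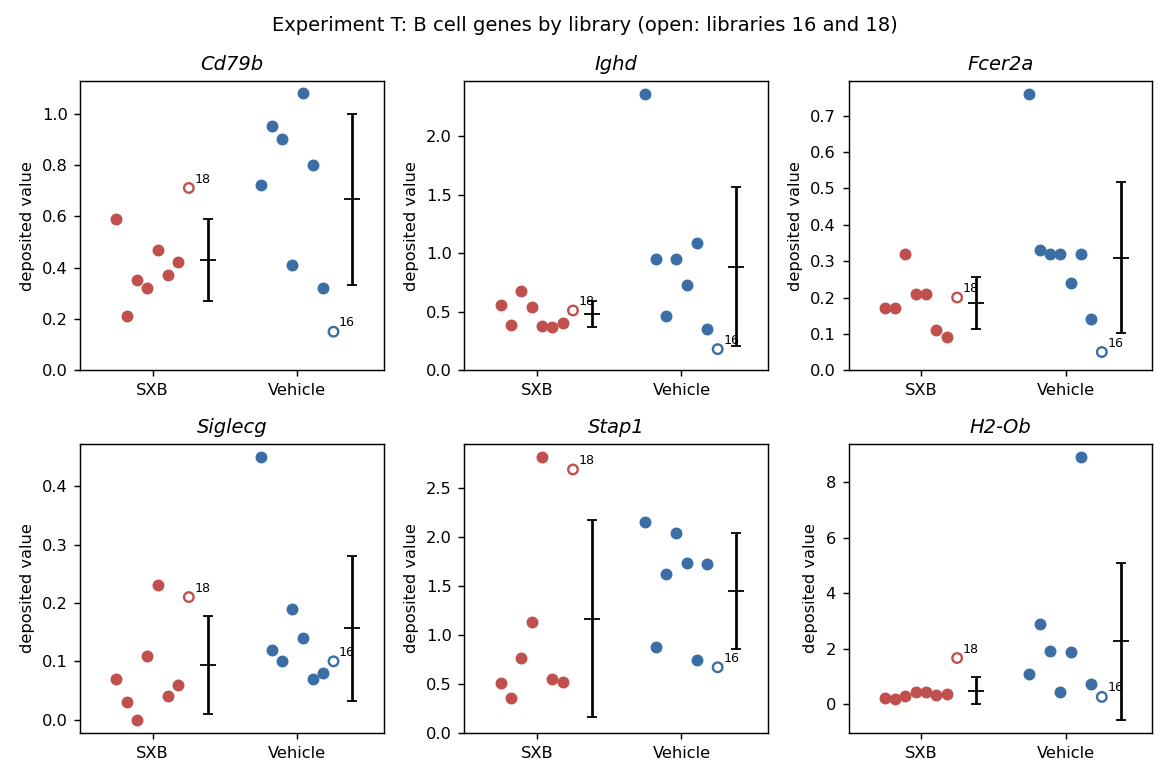
Values of 6 B cell genes in experiment T (vertical axes, the authors' normalised values), 1 point per library, with SXB left of vehicle and bars at mean ± SD (n = 8 each). Open points are libraries 16 and 18, numbered. The groups overlap in every panel; for H2-Ob 7 of 8 SXB libraries lie at 0.45 or less.

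Inside the cell, Stap1 encodes an adaptor protein that the kinase TEC phosphorylates in human cells. With SXB it was at 0.36 to 1.13 in 6 libraries and at 2.69 and 2.82 in libraries 18 and 9, the highest of the experiment. With SXB the median was 0.655, and with vehicle it was 1.67, in a range of 0.67 to 2.15. H2-Ob, the beta chain of H2-O, had the largest difference of the 6. It ranged from 0.19 to 1.67 with SXB (median 0.345) and from 0.27 to 8.91 with vehicle (median 1.49). Apart from library 18, at 1.67, the SXB libraries lay at 0.45 or less, while 6 of 8 vehicle libraries were at 0.74 or more, the others being library 10 at 0.43 and library 16 at 0.27. The mean was 0.495 ± 0.484 with SXB and 2.27 ± 2.83 with vehicle (SD, n = 8 each), 4.59-fold lower, or 2.68-fold lower without vehicle library 14, which holds 8.91, and 6.95-fold lower without SXB library 18.

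By limma on log2(value + 1), a scale that understates changes of low genes, 0 of the 6 genes passed an adjusted p of 0.05 by label, as did 0.0% of all listed genes of T. At an unadjusted p below 0.05 there was 1 of the 6, H2-Ob, and 90 of 306 listed genes. The exact permutation test passed 0 listed genes too. The difference, SXB minus vehicle, was -0.85 for H2-Ob (SE 0.35, limma adjusted p = 0.167), -0.28 for Ighd (SE 0.16), -0.25 for Stap1 (SE 0.24), -0.20 for Cd79b (SE 0.12), -0.13 for Fcer2a (SE 0.08) and -0.08 for Siglecg (SE 0.06). The 95% intervals of the last 5 include 0, from -0.76 to 0.26 for Stap1 and from -0.45 to 0.05 for Cd79b. The median of the 6 differences was -0.23, against -0.02 over all listed genes, of which 51.6% were lower. All 6 were lower in the authors' deposited table, so this gap follows at least in part from the choice of the genes. In none of the 6 genes were the groups apart without overlap, as in 0.0% of the listed genes.

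Without libraries 16 and 18, H2-Ob and Cd79b fell and the other 4 genes did not pass. These are 2 of 6 genes, while 18.3% of all listed genes passed and 12.1% passed as lower with SXB. H2-Ob then ranged from 0.19 to 0.45 with SXB and from 0.43 to 8.91 with vehicle, so that 6 of 7 vehicle libraries lay above every SXB library. Its mean was 0.327 ± 0.0988 with SXB and 2.56 ± 2.92 with vehicle (SD, n = 7 each), 7.82-fold lower, or 4.59-fold without vehicle library 14. The difference was -1.13 (SE 0.34, limma adjusted p = 0.0406). The call ended in 9 of 14 omissions of 1 further library and stood without SXB library 7 or 9 or vehicle library 10, 14 or 15, with adjusted p-values from 0.0198 to 0.067.

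Cd79b had a mean of 0.39 ± 0.12 with SXB and 0.74 ± 0.281 with vehicle (SD, n = 7 each), 1.90-fold lower. Each of the 7 SXB libraries was under the vehicle median, and 5 of 7 vehicle libraries above every SXB library. The difference was -0.31 (SE 0.10, limma adjusted p = 0.0495), just inside the threshold. The call ended in 13 of 14 omissions and stood only without vehicle library 15, with adjusted p-values from 0.0344 to 0.0873. In the exact permutation test, two-sided, H2-Ob passed (adjusted p = 0.0382) and Cd79b did not (adjusted p = 0.0546).

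Ighd differed by -0.37 (SE 0.16, limma adjusted p = 0.0906) and Fcer2a by -0.18 (SE 0.08, limma adjusted p = 0.0969) without libraries 16 and 18. Their mean levels were 0.474 ± 0.12 with SXB and 0.984 ± 0.664 with vehicle for Ighd, and 0.183 ± 0.0759 with SXB and 0.347 ± 0.195 with vehicle for Fcer2a (SD, n = 7 each). Vehicle library 4 was the highest in both, at 2.36 and 0.76. Without it Ighd was 1.59-fold and Fcer2a 1.52-fold lower with SXB, against 2.08-fold and 1.90-fold with it. Stap1 (-0.45, SE 0.22) and Siglecg (-0.11, SE 0.07) did not pass either, with limma adjusted p-values of 0.117 and 0.176 and 95% intervals from -0.93 to 0.03 and from -0.26 to 0.04. Without SXB library 9, which holds 2.82, Stap1 passed (limma adjusted p = 0.0305) at a difference of -0.63, as did 57 of the 306 listed genes. In the other 13 of 14 omissions Stap1 did not pass, with limma adjusted p-values up to 0.187. The groups overlapped in all 6 genes, and 0.98% of all listed genes had groups without overlap.

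With the groups of libraries 16 and 18 exchanged, as the blocks of columns have them, H2-Ob (-1.12) and Cd79b (-0.34) passed, both with a limma adjusted p of 0.0174. This is 2 of 6 genes against 29.4% of all listed genes, or 19.9% as lower with SXB. Stap1 was at -0.54 (limma adjusted p = 0.0568), Ighd at -0.37 and Fcer2a at -0.18 (0.0653 and 0.0667), and Siglecg at -0.11 (0.114). All these genes were listed by the authors' contrast on the same libraries, and that contrast may have followed the blocks. Exchanging or leaving out libraries 16 and 18 may thus move the groups towards the contrast that chose the genes. The added passes are therefore a description and do not bear on which grouping is right. The labels remain the basis of the groups.

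**Figure D2:**
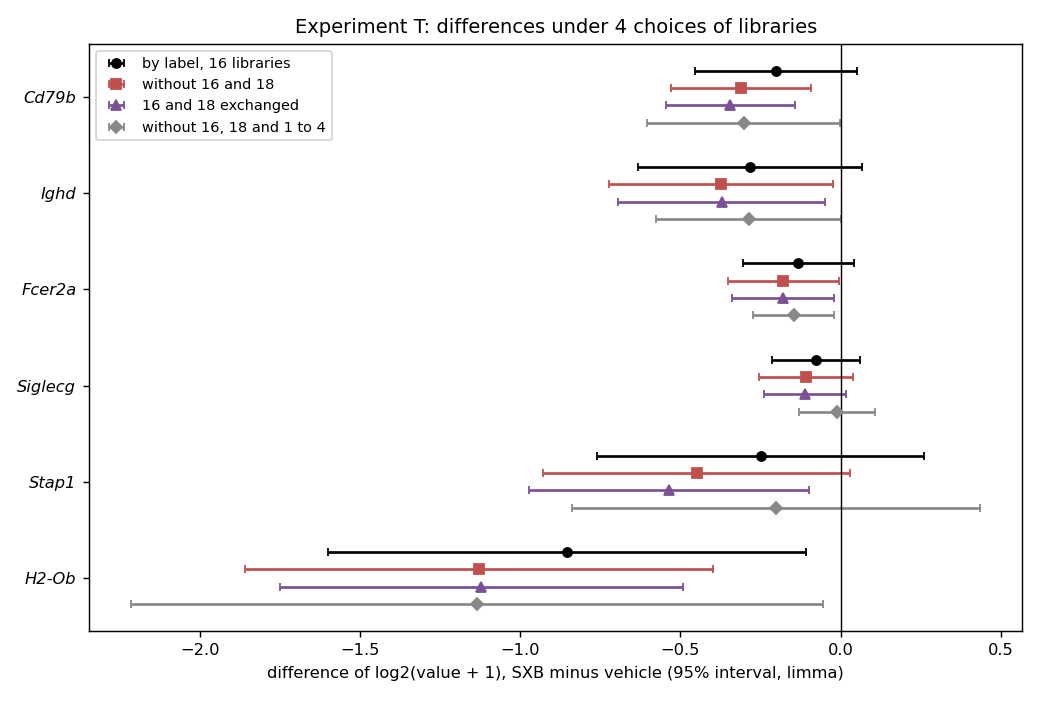
Differences of 6 B cell genes in experiment T on the log2(value + 1) scale, SXB minus vehicle (horizontal axis), with 95% intervals from limma under 4 choices of libraries. By label the interval of H2-Ob alone lies below 0; without libraries 16 and 18 those of Cd79b, Ighd, Fcer2a and H2-Ob do.

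The calls also depended on how libraries 1 to 4, high in mt-Atp6, entered the fit. Vehicle library 4 holds the highest Ighd, Fcer2a and Siglecg, at 2.36, 0.76 and 0.45. With libraries 1 to 4 as a term and without 16 and 18, Ighd (-0.49) and Fcer2a (-0.24) passed, both with a limma adjusted p of 0.0446, and H2-Ob (-1.04, 0.0581) and Cd79b (-0.31, 0.0637) did not, against 16.3% of all listed genes and 12.1% as lower. With libraries 1 to 4 left out as well, 0 of the 6 genes and 1.31% of all listed genes passed (0.327% as lower), and 3 of the 6 had an unadjusted p below 0.05, as had 92 of the 306 listed genes. This takes away 3 of 7 SXB and 1 of 7 vehicle libraries. Smaller groups and the traits of these libraries cannot be told apart as sources of the fewer passes. The differences of H2-Ob (-1.13), Cd79b (-0.30), Ighd (-0.29) and Fcer2a (-0.15) stayed near their size in the 14 libraries, and those of Stap1 (-0.20) and Siglecg (-0.01) were smaller. All 6 differences were negative in both fits, as were 52.3% of those of all listed genes in each. By label, with libraries 1 to 4 left out, Stap1 was 0.04 and Siglecg 0.02 higher with SXB.

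The fold changes in the authors' deposited table differ from ratios of the deposited values. For H2-Ob the authors' fold is 2.21-fold lower (adjusted p = 0.0312), against 4.59-fold by label and 7.65-fold with libraries 16 and 18 exchanged. For Ighd it is 2.24-fold lower (adjusted p = 0.0461 in the authors' deposited table), against 1.85-fold by label and 2.11-fold exchanged. Both are among the 14.1% of listed genes of T whose adjusted p, by the authors' deposited table, is under 0.05. The other 4 have adjusted p-values there of 0.130 for Fcer2a, 0.151 for Cd79b, 0.234 for Stap1 and 0.366 for Siglecg. Stap1 shows the widest gap after H2-Ob, 2.04-fold lower in the authors' deposited table against 1.24-fold by label and 1.86-fold exchanged. Cd79b is 2.11-fold lower there, against 1.55-fold by label and 2.045-fold exchanged. Fcer2a is 2.17-fold lower, against 1.68-fold and 1.98-fold, and Siglecg 2.07-fold, against 1.67-fold and 2.125-fold. For H2-Ob the authors' fold is nearer to the ratio by label, and for each of the other genes to the exchanged ratio. Which groups the authors' contrast used was not tested.

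The 6 genes did not vary as 1 block across the libraries of T. Library 16 was the lowest of 16 for Cd79b, Ighd and Fcer2a, but 14th for H2-Ob, 12th for Stap1 and 8th, tied, for Siglecg. Library 4 was the highest for Ighd, Fcer2a and Siglecg and 5th for Cd79b. SXB libraries 9 and 18 were among the top 3 for Stap1 and Siglecg, while library 9 was 8th for Cd79b and 13th for Ighd.

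**Figure D3:**
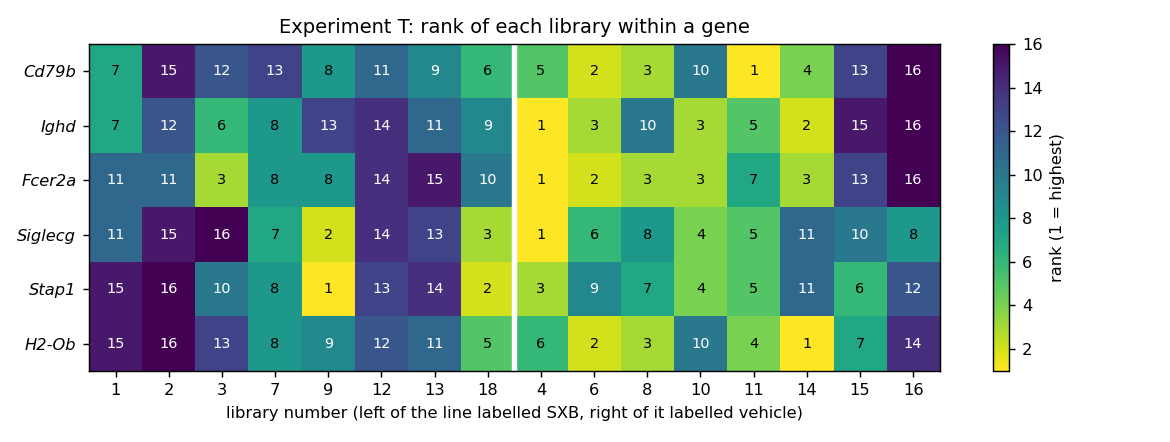
Rank of each library of experiment T (columns, by library number) within each of 6 genes (rows), 1 being the highest of 16, with ties sharing a rank. Libraries labelled SXB are left of the line and those labelled vehicle right of it. Library 16 has rank 16 in 3 genes and library 4 has rank 1 in 3 genes.

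After each group's mean was taken off, Spearman's rho between 2 of the 6 genes was above 0.6 for 3 of 15 pairs over the 16 libraries, and 0.396 at most for the other 12. As a description, with pairs chosen after their values were seen, these were Cd79b and H2-Ob (rho 0.762, Pearson's r 0.671), Ighd and Fcer2a (rho 0.715, r 0.919) and Stap1 and Siglecg (rho 0.674, r 0.721). Without the 2 libraries farthest from the median of the first gene, r was 0.544, 0.673 and 0.592. The points share libraries of unknown depth. In whole liver, the number of B cells, RNA per B cell, other cells and technical spread cannot be told apart as sources of any difference.

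**Figure D4:**
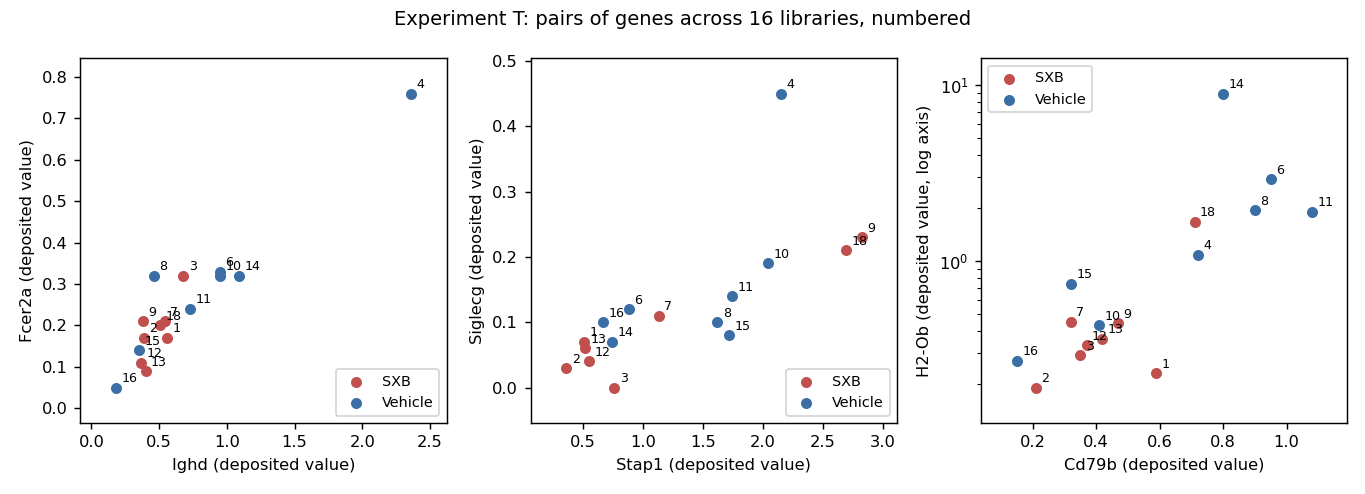
The 3 pairs of genes of experiment T, 1 numbered point per library, SXB and vehicle in 2 colours; axes are the authors' normalised values, with a log axis for H2-Ob. Library 4 lies far from the rest for Ighd with Fcer2a, and libraries 9 and 18 lie at the right for Stap1 with Siglecg.

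The genes of T whose group-centred values were most like the mean of the 6, by Spearman's rho over 16 libraries, were the claudin gene Cldn15 (0.85), Gm17634 (0.765), Slc22a29 (0.714), Spo11 (0.706) and Il11ra2 (0.652). None is in the B cell list. Several lie near the rounding of 0.01: with SXB and vehicle the means were 0.005 and 0.0325 for Spo11, 0.03 and 0.135 for Il11ra2 and 0.079 and 0.119 for Cldn15. Slc22a29 (0.144 and 0.281) and Gm17634 (1.42 and 2.94) were higher. As the highest of all listed genes, these likenesses are a description only.

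Of the B cell list of 62 genes, T holds the 6 genes above. All 6 were lower by label, as were 51.6% of all listed genes, and 0 passed, as did 0.0% of all listed genes. Without libraries 16 and 18, 2 passed as lower, against 12.1% of all listed genes.

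Markers of other immune cells were few in T. Of 11 plasma cell, 17 T cell, 8 natural killer cell and 10 neutrophil genes the table lists 0, and these were not analysed here. Of 8 dendritic cell genes it lists Itgax, at 0.03 to 0.39 with SXB and 0.14 to 0.77 with vehicle, which did not pass by label or without libraries 16 and 18. Of 21 macrophage and monocyte genes it lists Ccl2 and Mmp12, whose summed level was 0.45 to 4.76 with SXB and 0.57 to 11.6 with vehicle, with neither passing, by label or without libraries 16 and 18. Their part in the values of the B cell genes was not tested.

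In experiment P both listed genes passed as lower with SXB, in a table chosen by the authors' unadjusted p on these same libraries. Btla encodes an inhibitory receptor of B and T lymphocytes that binds HVEM. It ranged from 0.01 to 0.10 with SXB (median 0.04) and from 0.02 to 0.18 with vehicle (median 0.12). Each of the 8 SXB libraries was under the vehicle median and 6 of 8 vehicle libraries above every SXB library, the exceptions being libraries 33 at 0.07 and 34 at 0.02. The mean was 0.0413 ± 0.0304 with SXB and 0.111 ± 0.0479 with vehicle (SD, n = 8 each), 2.70-fold lower, and the difference was -0.09 (SE 0.03, limma adjusted p = 0.0215).

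Fcrl1 encodes an Fc receptor-like coreceptor found mainly on B cells. It ranged from 0 to 0.17 with SXB (median 0.06) and from 0.06 to 0.27 with vehicle (median 0.13). Of the SXB libraries 7 of 8 lay below the vehicle median, library 20 was listed at 0, and library 24, at 0.17, lay above 5 vehicle libraries. The mean was 0.0638 ± 0.0493 with SXB and 0.144 ± 0.0697 with vehicle (SD, n = 8 each), 2.26-fold lower, and the difference was -0.10 (SE 0.04, limma adjusted p = 0.046).

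These 2 of 2 genes are set against 38.8% of all listed genes of P that passed and 34.7% that passed as lower. Their median difference was -0.10, against -0.17 over all listed genes. The groups overlapped in both, and 2.89% of the listed genes had groups without overlap. The call of Btla stood in all 16 omissions of 1 library, with adjusted p-values from 0.00602 to 0.0424. That of Fcrl1 ended in 12 of 16 omissions and stood only without SXB library 24 or vehicle library 21, 26 or 36. Without vehicle libraries 33, 34 and 35, Btla passed (-0.12, SE 0.02, limma adjusted p = 0.012) and Fcrl1 did not (-0.09, SE 0.05, limma adjusted p = 0.164), against 22.3% of all listed genes and 20.7% as lower. Both differences were negative, as were 75.2% of those of all listed genes. Btla was then at 0.01 to 0.10 with SXB and 0.11 to 0.18 with vehicle, without overlap, as in 4.13% of the listed genes. In the authors' deposited table the adjusted p is 0.158 for Btla, 2.57-fold lower, and 1 for Fcrl1, 2.35-fold lower, and 20.7% of the listed genes are under 0.05. With median-of-ratios scaling factors taken over the listed genes, 0 of the 2 passed (Btla at -0.04, Fcrl1 at -0.02), against 7.85% of all listed genes, 0.826% as lower. Both differences stayed negative, as did 69.0% of those of all listed genes.

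Of the B cell list P holds 4 genes, Btla, Fcrl1, Ltb and Cd40, and all 4 fell with SXB by label, while Btla and Ltb passed without vehicle libraries 33, 34 and 35. Of all listed genes 34.7% passed as lower by label and 20.7% without these libraries. Ltb encodes lymphotoxin beta, a membrane ligand of lymphocytes that organises lymphoid tissue. It was 0.26 ± 0.137 with SXB and 0.545 ± 0.144 with vehicle (SD, n = 8 each; difference -0.30, SE 0.07, limma adjusted p = 0.00582), with 6 of 8 SXB libraries below every vehicle library. Cd40, the costimulatory receptor of B cells and macrophages, was 0.0588 ± 0.021 with SXB and 0.164 ± 0.11 with vehicle (SD, n = 8 each; difference -0.13, SE 0.05, limma adjusted p = 0.0432). The call of Cd40 ended in 14 of 16 omissions and that of Ltb in 0. With median-of-ratios factors both calls ended, with Ltb at -0.06 (limma adjusted p = 0.796) and Cd40 at -0.05 (limma adjusted p = 0.679).

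**Figure D5:**
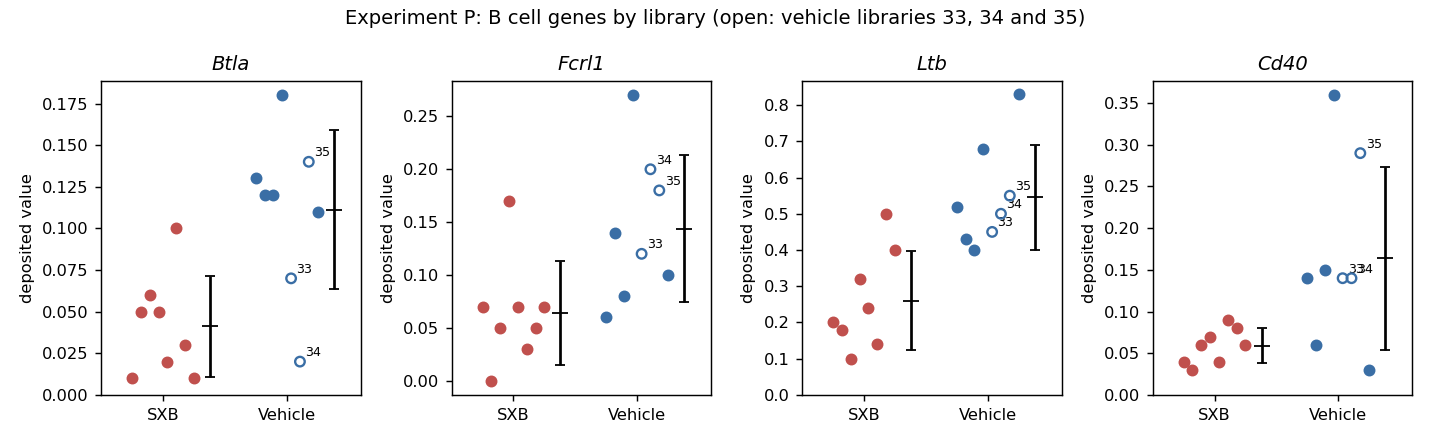
Values of Btla, Fcrl1, Ltb and Cd40 in experiment P (vertical axes, the authors' normalised values), 1 point per library, with SXB left of vehicle and bars at mean ± SD (n = 8 each). Open points are vehicle libraries 33, 34 and 35, numbered. All 8 SXB values of Btla, Ltb and Cd40 lie below the vehicle median.

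Between Btla and Fcrl1, Spearman's rho was -0.065 over the 16 libraries once group means were taken off, although vehicle library 31 was the highest in both, at 0.18 and 0.27. The genes of P most like their mean by Spearman's rho were Gm47218 (0.605), Cd40 (0.59), Fosb (0.518), Upk1b (0.508) and Sema3g (0.487), while Ltb was at 0.128. With only 2 genes in that mean and values near 0.1, these are weak likenesses.

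Markers of other cell types are listed in P as well, to be read against 83.1% of all its listed genes lower with SXB and 34.7% passing as lower. Of 21 macrophage and monocyte markers 10 are listed, of which 10 were lower and 8 passed, and their summed level was 39.2 to 59.1 with SXB and 60.3 to 147.8 with vehicle. Of 11 plasma cell markers 5 are listed (Mzb1, Derl3, Igkc, Ighg2b and Ighg2c), of which 5 were lower and 2 passed, with a summed level of 9.77 to 22.97 with SXB and 19.96 to 108.5 with vehicle. Of 10 neutrophil markers 2 are listed, with 0 passing and a summed level of 0.46 to 4.52 with SXB and 0.66 to 12.1 with vehicle. T cell, natural killer cell and dendritic cell markers are listed in 0 of 17, 8 and 8 cases. Without vehicle libraries 33, 34 and 35, 9 of the 10 macrophage markers were lower and 7 passed, 1 of the 5 plasma cell markers passed, and 0 of the 2 neutrophil markers were lower, against 75.2% lower and 20.7% passing as lower among all listed genes. The part of these cells in the values of Btla, Fcrl1, Ltb and Cd40 was not tested.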

How the data were processed

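Total liver RNA was read on an Illumina HiSeq as paired ends of 150 bases, per the labels' protocols. Named in the submitters' processing notes are DESeq2, RSEM, StringTie, HISAT2 and fastp and the build GRCm38, without versions or roles. In the library columns the authors deposited a signal, a normalised expression value per gene rounded to 0.01; TPM or FPKM is not stated. The comparison headers are shifted by 1 column: judged by its values, what the authors deposited is a fold change as a ratio, then the log2 of it, then the p-value before and after adjustment. The values are not counts, so no count model was used. Depth is unknown, so how many reads lie behind a low value or a 0 cannot be told. Rounding limits low genes as well.

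Groups follow the treatment label. Each table was fitted by itself with limma 3.58.1 (R 4.3.3), on log2(value + 1). These tests were two-sided, and p-values were adjusted by Benjamini-Hochberg over all 306 or 242 listed genes, at a threshold of 0.05. Exact permutation tests used all 12870 assignments of 16 libraries, or 3432 of 14, in Python 3.11.15. The fits were tested on simulated data. Alternatives were pseudocounts of 0.1 and 0.01, a mean of at least 1, trend and robust fitting, scaling factors and libraries left out, exchanged or as a term. No library was a duplicate of another, since rho (Spearman) over the listed genes reached at most 0.866 in P and 0.856 in T. The genes, lists and tests were chosen with earlier results of these data known. Named genes are the 8 genes, the listed genes of a B cell list and, per table, the 5 genes most alike; mt-Atp6, Ccl2, Mmp12 and Itgax and the plasma cell genes are named as markers. The B cell list and its counts leave out 1 gene that is not reported here. Gene identifiers matched GENCODE M21 for 305 of 306 genes of T and 242 of 242 of P.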

Additional observations from a re-analysis of the deposited data

Results flagged for a closer look

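In groups of 8 libraries, a highest or lowest value was taken as standing apart where its gap to the nearest library, divided by the range, exceeded Dixon's 95% critical value. Of 20 groups (10 genes, SXB and vehicle), 6 had such a value, each time the highest. For normal values in independent groups chance gives about 1 in 20 groups. Here the values are low and bounded at 0 and the groups share libraries, so the 6 cannot be set against that rate. In T, vehicle library 4 was highest for 3 genes: Ighd at 2.36 (next 1.09), Fcer2a at 0.76 (next 0.33) and Siglecg at 0.45 (next 0.19). Vehicle library 14 held 8.91 of H2-Ob (next 2.91), and SXB library 18, whose label and column block disagree, held 1.67 of H2-Ob (next 0.45). In P, SXB library 24 held 0.17 of Fcrl1 (next 0.07).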

How the results depend on the processing

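By label, 0 of the 6 genes of T passed under every alternative that kept libraries 16 and 18 with their labels, each library left out included (0 to 0; with a mean of at least 1, H2-Ob and Stap1 alone were tested), while the listed genes passing were 0, or 2 at a pseudocount of 0.01. Without libraries 16 and 18, 56 listed genes and 2 of the 6 passed, and with 1 more library left out 3 to 76 and 0 to 2. Exchanged, 90 and 2 passed, among genes listed by a contrast that may have followed the blocks of columns. Chosen after seeing the data, the exact permutation test without libraries 16 and 18 gave 61 and 1. Also chosen so, and also without libraries 16 and 18, libraries 1 to 4 as a term gave 50 and 2. Leaving libraries 1 to 4 out, which makes the groups smaller, gave 4 and 0. The 2 genes differ between these fits, as the report gives them. By label without libraries 1 to 4, Stap1 (0.0373) and Siglecg (0.0177) changed sign; the cause was not tested.

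In P, both genes passed with pseudocounts of 0.1 and 0.01, trend and robust fitting and the exact permutation test, under which 110, 130, 117 and 113 of the 242 listed genes passed. Of the listed genes 94 passed, 10 higher and 84 lower, against 68 to 101 with 1 library left out (1 to 2 of the 2 genes), 54 without vehicle libraries 33, 34 and 35 (1 of the 2), and 26 of the 47 with a mean of at least 1, which keeps neither gene. Scaling by median-of-ratios factors over the listed genes gave 19, 17 higher and 2 lower, and 0 of the 2 genes, with Btla at -0.04, Fcrl1 at -0.02 and the median of all listed genes at -0.02 instead of -0.17. These factors, taken over the 109 listed genes without a 0, were 0.625 to 0.906 with SXB and 1.05 to 2.15 with vehicle. Of the 242 selected genes 201 are lower, and by construction such factors take off a shift shared by most listed genes. Whether that shift lies in the genes or in the scale of the libraries was not tested. Group means of the 8 genes were 2.56 at most, where rounding and the pseudocount weigh most. No paired analysis was possible because the labels give no replicate numbers shared between groups.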
